A study of Mus musculus with 6 samples.

Results

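The enzymes and carriers that move glucose into the cell, break it down to pyruvate and lactate, and store it as glycogen were examined in mouse atria after a high-fat diet (HFD). The set holds 38 genes, taken by name from the 43432 genes of the deposited table. It comprises 3 glucose transporters, 2 hexokinases, 4 genes of hexose phosphate isomerase and phosphofructokinase, 4 PFKFB enzymes, 3 genes of the aldolase step, 7 of lower glycolysis, 3 for lactate, 2 for mitochondrial pyruvate entry, 6 for glycogen and 4 of the pentose phosphate pathway. All 38 were found by exact spelling once case was ignored, since the table writes names in capitals, and none was listed more than once. Wild-type mice, labelled C57/Bl6J, received the HFD or a control chow from 6 weeks of age for 10 weeks, after which left and right atria were taken for RNA. Each diet was sequenced in 3 mice, called HFD mice 1 to 3 and control mice 1 to 3. No transgene or drug was given to any of them, and nothing in the labels says that animals were pooled. The labels contradict one another: in all 6 samples the treatment field names the diet opposite to the one in the title and the table's column name. Groups follow the titles here, and every direction below rests on that choice.

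Glucose enters heart muscle through facilitative transporters, of which Slc2a4 responds to insulin and Slc2a1 works at rest. Hexokinase traps the sugar, phosphofructokinase commits it to glycolysis, and the PFKFB enzymes set the level of the sugar bisphosphate that activates phosphofructokinase. The heart draws most of its energy from fatty acids and keeps a sizeable glycogen store, and its glycolytic enzymes come as muscle isoforms beside more widely used ones. The pentose phosphate pathway branches off after hexokinase and yields NADPH and ribose.

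Values are normalized counts, that is, the reads of a gene divided by 1 size factor per sample. Between 15874251 and 28971508 reads per mouse lay on genes, with control mouse 2 the deepest. In that mouse 30.7% of reads were mitochondrial, against 19.5% to 24.4% in the other 5. A count of 3 reads, the floor used here, equals 2.05 to 3.41 normalized counts, counting error only. All 38 genes lay above it in every mouse and reached the mean of 10 required for testing. The 5 markers listed for atrial muscle summed to 862964 to 905884 normalized counts in the control mice. In HFD mice 1, 2 and 3 they summed to 557783, 664103 and 972027. By this sum HFD mice 1 and 2 lay below all control mice and HFD mouse 3 above them. Myh6 had the highest mean of the 5 markers. Sln went another way, below all controls in every HFD mouse (19799 in HFD mouse 3, against 25151 to 27600). The 8 skeletal muscle markers summed to 86.7 to 175, and the 3 fast myosins among them were at 0 in some mice. The endothelial markers (5 genes) did not overlap between diets, with 13328 to 14926 in HFD and 11105 to 12007 in control mice. That rested on 1 marker, Pecam1, singled out after its values were seen: the other 4 each overlapped, and their sum overlapped too, with 7706 to 8667 against 6999 to 7988. The brown adipocyte markers (4 genes) did not overlap either, with 616 to 1283 against 187 to 330, and 2 of the 4 had an adjusted p under 0.05. The 6 white adipocyte markers overlapped (1257 to 3718 against 568 to 2747), as did the erythroid, leukocyte, fibroblast, smooth muscle, ventricular, neuron and mesothelial lists. In whole atria, fewer cells of a type and less RNA per cell cannot be told apart.

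The log2 fold changes of the 38 genes, HFD minus control, ranged from -0.56 to 0.56. None of the 38 genes passed an adjusted p of 0.05 in limma (log2 of the normalized count + 1, Benjamini-Hochberg over 15275 genes tested), against 0.746% of all genes tested, 74 of them higher and 40 lower in HFD atria. An unadjusted p under 0.05 was found for 6 of the 38 genes (15.8%), 3 higher and 3 lower, against 12.2% of all genes (6.66% higher and 5.55% lower). The 3 mice of each diet did not overlap for 7 genes (18.4%), 4 higher and 3 lower, against 18% of all genes (8.86% higher and 9.17% lower). Each of these shares lay near its background. The median log2 fold change of the 38 genes was -0.049, with 16 positive and 22 negative values, and that of all genes was 0.0049. The plot of fold changes by role shows how narrow the intervals were: for 35 of the 38 genes (92.1%) the 95% interval lay within a 2-fold change in either direction, against 74.1% of all genes, and for 20 of them it lay within 0.5 log2 units of 0. The 3 exceptions, Aldoc, Pfkfb1 and Slc16a3, were among the scarcest of the set (means of 15.7, 74.5 and 68.5 normalized counts). The set and all genes were not matched for level in this comparison.

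**Figure D1:**
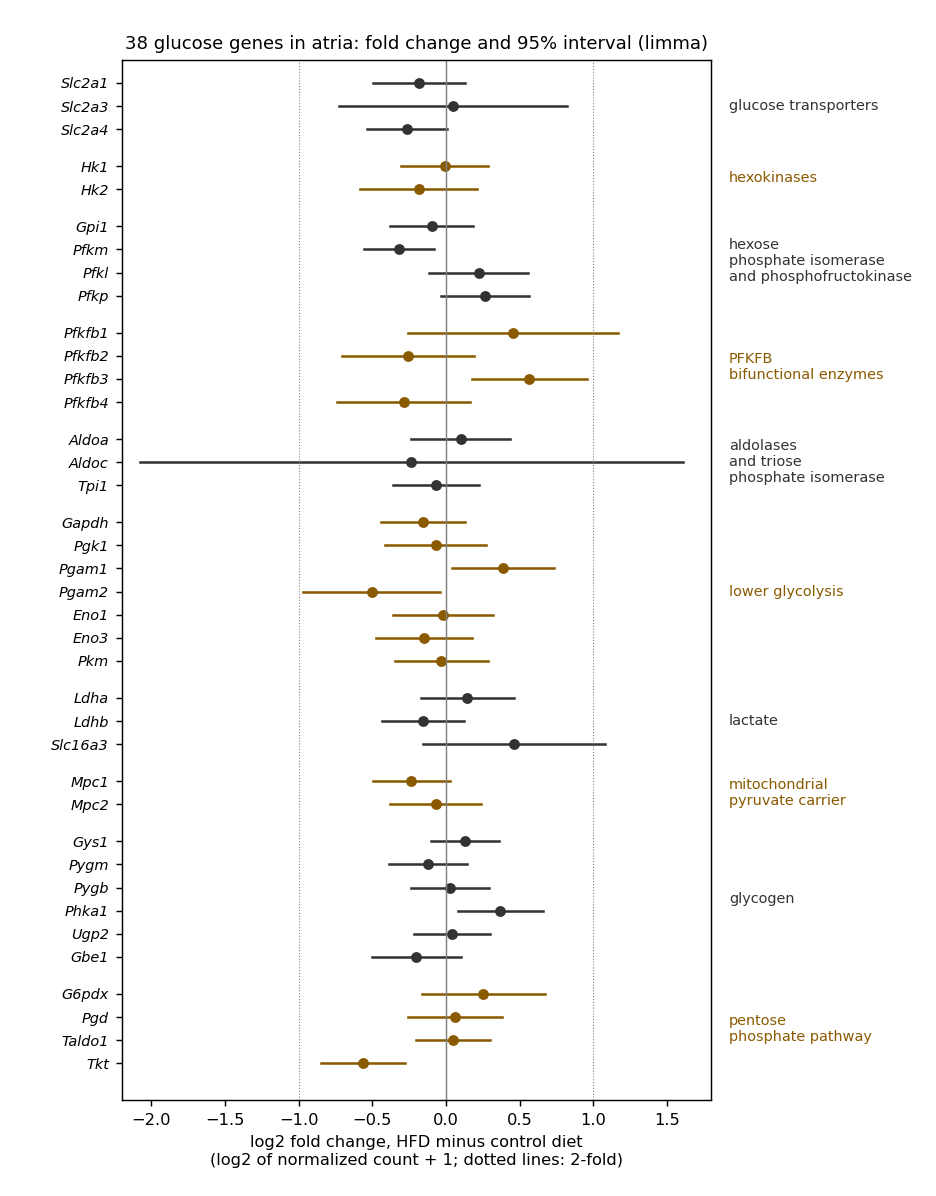
Log2 fold change of each of the 38 genes, HFD minus control diet (x axis, log2 of the normalized count + 1), with genes on the y axis grouped by role. Points are limma estimates from 3 mice per diet and bars are 95% intervals. All intervals but those of Aldoc, Pfkfb1 and Slc16a3 lie between the dotted 2-fold lines, and the intervals of Pfkm, Pfkfb3, Pgam1, Pgam2, Phka1 and Tkt do not reach 0.

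Calls among these genes depended on HFD mouse 3 and on the method. Without HFD mouse 3, 2 of the 38 genes passed, Pgam2 (adjusted p = 0.0106 from limma) and Tkt (adjusted p = 0.0465 from limma), both lower, against 2.08% of all genes in that fit. In every other fit with 1 mouse left out, 0 of the 38 passed. DESeq2, run on reads recovered from the deposited values, gave 1 gene, Tkt (adjusted p = 0.0077), against 3.58% of all genes with an adjusted p, and edgeR's quasi-likelihood test gave 0 with either scaling (0.57% and 0.596% of all genes). Together the 38 genes took 1.24% to 1.39% of the nuclear reads of the HFD mice and 1.31% to 1.46% of those of the control mice, which overlap. HFD mouse 3 had the highest value of its diet for 24 of the 38 genes (63.2%, against 36.1% of all genes) and HFD mouse 2 for 4 (10.5%, against 32.8%). Among the controls, mouse 2 had the highest value for 21 of the genes (55.3%, against 29.9% of all genes) and mouse 3 for 2 (5.26%, against 35.9%).

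Per 1000 bases of exon, the levels spanned more than 3 orders of magnitude, as the plot of levels by role shows. Aldoa, the muscle aldolase, was highest with a mean of 12014 normalized counts per 1000 bases over the 6 mice. Next came Pgam2, the muscle phosphoglycerate mutase, with 7555, Ldhb with 7289, Eno3, the muscle enolase, with 6141, and the muscle glycogen phosphorylase Pygm with 5200.1. The ranges of Pgam2, Ldhb and Eno3 over the mice overlapped one another, and that of Pygm overlapped those of Pgam2 and Eno3. At the other end lay Aldoc, the brain aldolase, with 4.81 per 1000 bases, Slc2a3, the neuronal glucose transporter, with 8.35, and Slc16a3, a lactate exporter, with 12.9. In all 9 families with several isoforms among the 38 genes, the isoform usual in heart or muscle had the highest level per 1000 bases within each mouse. The lead was least for Hk2, with 518 against 412 for Hk1. By counts, before dividing by exon length (8532 bases for Hk1 and 5969 for Hk2), Hk1 was higher in all mice but control mouse 2. Exon lengths here join all annotated transcripts of a gene, so levels per 1000 bases are approximate.

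**Figure D2:**
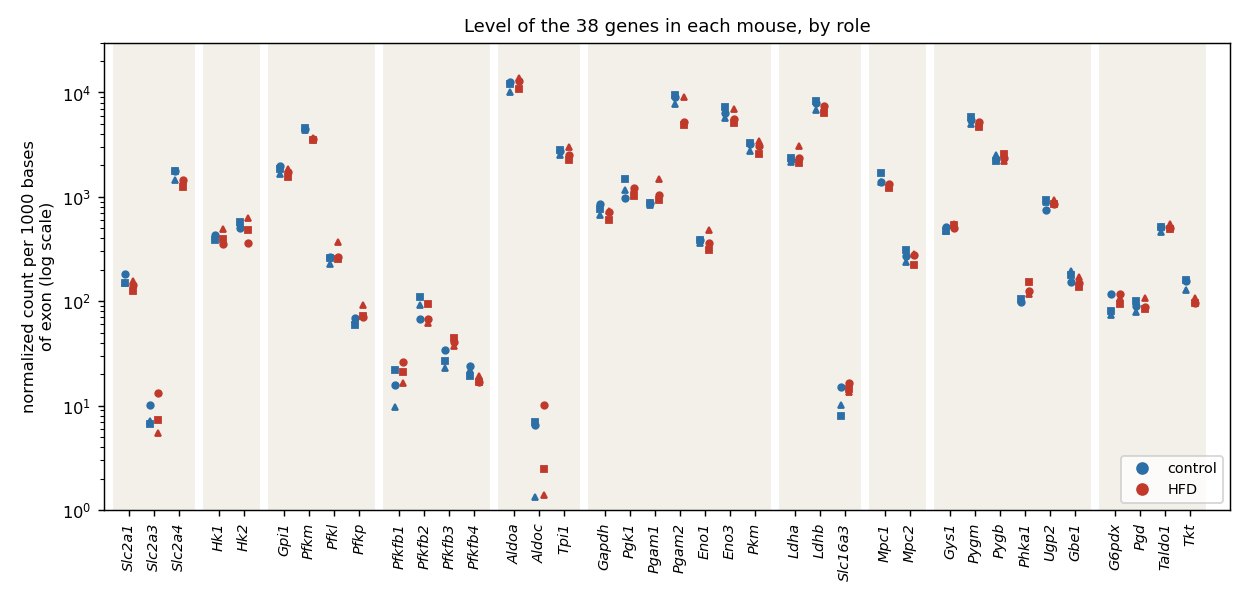
Level of each of the 38 genes in each mouse, in normalized counts per 1000 bases of exon (y axis, log scale), with genes on the x axis shaded in blocks by role. Blue points are the 3 control mice and red points the 3 HFD mice (circle, square and triangle for mice 1, 2 and 3). Aldoa is highest and Aldoc and Slc2a3 lowest, and the colours of most genes lie on top of each other.

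Of the glucose transporters, none of 3 passed the test. Slc2a4, the transporter that insulin brings to the cell surface, had 5045, 4324 and 4954 normalized counts in HFD mice 1, 2 and 3 and 6112, 6119.8 and 5017 in control mice 1, 2 and 3. Control mouse 3 overlapped the HFD mice, and the log2 fold change was -0.27 (95% interval -0.54 to 0.0076, adjusted p = 0.425 from limma). Slc2a1, the basal transporter, had 497, 438 and 551 against 636, 523 and 529, again overlapping, with a log2 fold change of -0.18 (interval -0.50 to 0.13). Slc2a3 counted 96.4, 53.0 and 39.8 against 73.9, 48.6 and 51.4. Its highest value in each diet was in mouse 1, where the 5 neuron markers were also highest in sum (861 in HFD mouse 1 against 115 and 93.1 in HFD mice 2 and 3, and 483 in control mouse 1 against 244 and 95.1). The white adipocyte, brown adipocyte, leukocyte and fibroblast markers were likewise highest in sum in mouse 1 of each diet. The part of any of these lists in Slc2a3 was not tested.

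The hexokinases, which trap glucose by phosphorylation, had overlapping diets. Hk1, the widely expressed form, had 3028, 3356 and 4183 in HFD and 3711, 3325 and 3504 in control mice, a log2 fold change of -0.0081 (interval -0.30 to 0.29). Hk2, the insulin-regulated muscle form, had 2154, 2859 and 3772 against 2994, 3419 and 3339. Its values ran apart within the HFD mice, where mouse 3 lay above all controls and mouse 1 below them, and the log2 fold change was -0.19 (interval -0.58 to 0.21).

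Phosphofructokinase is the committing step of glycolysis, and none of its 3 subunit genes passed. Pfkm, the muscle subunit (chromosome 15 of GRCm38, 98092589 to 98132447, plus strand), had 12012, 11775 and 12252 normalized counts in HFD mice 1 to 3 and 15061, 15192 and 14683 in control mice 1 to 3. Every HFD mouse lay below every control mouse, and the spread within each diet was narrow (SD 239 and 264). The log2 fold change was -0.32 (SE 0.11, unadjusted p = 0.0141, adjusted p = 0.25 from limma), a difference of -19.8% that did not pass. Over all the alternatives its adjusted p ranged from 0.0591 to 0.608. Pfkp, the platelet subunit, had 944, 969 and 1224 against 926, 791 and 885, with every HFD mouse above every control (log2 fold change 0.26, interval -0.036 to 0.56). Pfkl, the liver subunit, had 1770.0, 1699 and 2472 against 1777, 1722 and 1531, where only HFD mouse 3 stood clear of the controls (log2 fold change 0.22, interval -0.11 to 0.56). Per 1000 bases Pfkm still exceeded the others by far, with 4041 against 274 for Pfkl and 71.4 for Pfkp. Upstream of them, Gpi1, the isomerase between glucose and fructose phosphates, had 11261, 9916 and 11986 against 12871, 11960.3 and 10620.0 (log2 fold change -0.10). An exon of Pfkm overlaps Senp1 on the opposite strand, which had at most 363 normalized counts, and one of Pfkp overlaps Pitrm1, which had 955 to 1166. Such an overlap was found for 14 genes of the set. The partner's mean exceeded the gene's own for Pfkp (1053 against 957), G6pdx (Ikbkg, 600 against 303) and Pfkfb1 (Apex2, 85.3 against 74.5), and for no other. For Pfkfb2 the partner Yod1 had 173 against 593. The use of strand in counting is not known, and the part of these partners in the counts was not tested.

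The PFKFB enzymes make and degrade the activator of phosphofructokinase, and 1 of these 4 genes had an unadjusted p under 0.05. Pfkfb3, the form with the highest kinase activity, known in endothelial and proliferating cells (chromosome 2 of GRCm38, 11471433 to 11554077, minus strand), had 311, 338 and 283 normalized counts in HFD mice and 258, 205 and 174 in control mice. All HFD mice lay above all controls, with the closest pair being HFD mouse 3 and control mouse 1. Its log2 fold change was 0.56 (SE 0.18, interval 0.17 to 0.95, unadjusted p = 0.00897, adjusted p = 0.201 from limma), which did not pass. The summed endothelial markers were also higher in all HFD mice, but not once Pecam1 was left out, by the values given above, and their part in Pfkfb3 was not tested. Pfkfb2, the heart isoform that insulin signaling phosphorylates, had 489, 677 and 451 against 486, 789.8 and 667 and overlapped widely (log2 fold change -0.26, interval -0.71 to 0.19). Pfkfb1, the liver and muscle form, and Pfkfb4, known from testis and tumors, were scarce. Pfkfb1 counted 104, 84.6 and 65.9 against 63.8, 89.0 and 39.3 (log2 fold change 0.45, interval -0.26 to 1.17). Pfkfb4 counted 81.4, 82.6 and 94.3 against 118, 93.1 and 106 (log2 fold change -0.29, interval -0.74 to 0.16).

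**Figure D3:**
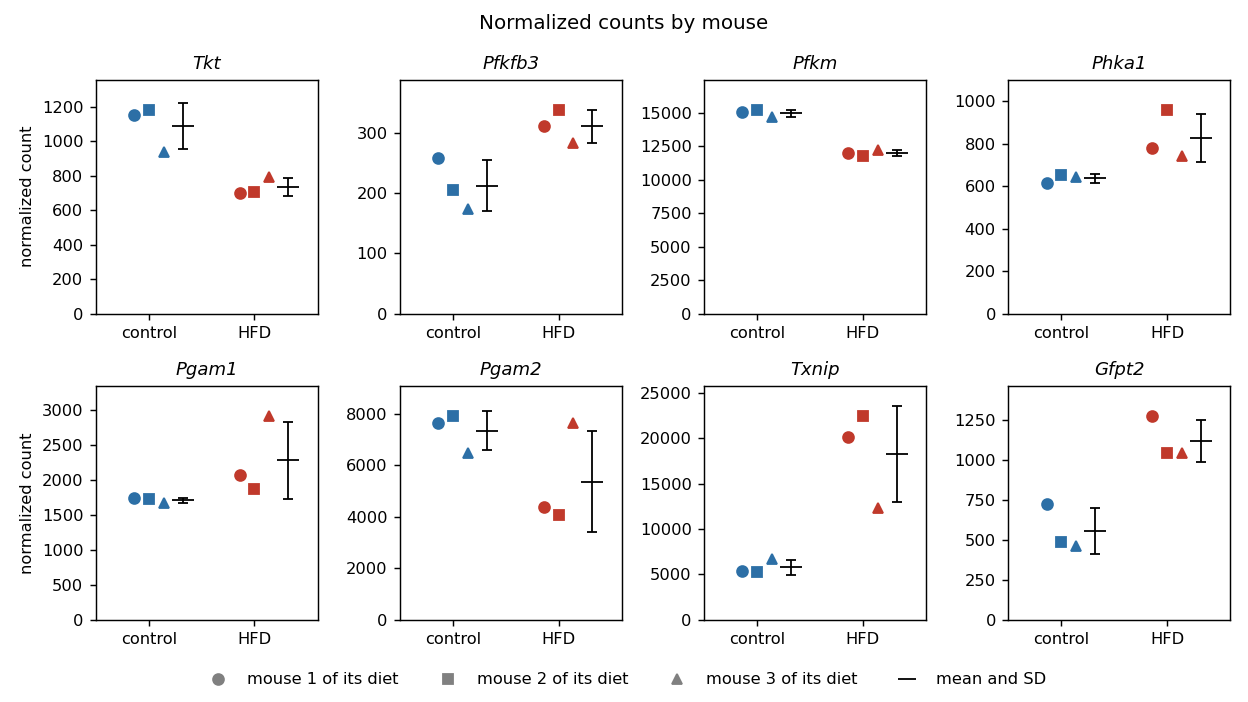
Normalized counts (y axis, from 0) of the 6 of the 38 genes with an unadjusted p under 0.05 and of Txnip and Gfpt2, by diet (x axis: control in blue, HFD in red). Each point is a mouse, with the mean and SD of 3 mice in black. Diets do not overlap except for Pgam2, where HFD mouse 3, at 7617, lies among the controls.

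In the aldolase step the diets differed by less than the spread of the mice. Aldoa had 37241, 31280.1 and 40109 normalized counts in HFD mice and 36392, 35179 and 29627 in control mice, a log2 fold change of 0.10 (interval -0.24 to 0.44). Tpi1, triose phosphate isomerase, had 6891, 6196 and 8354 against 7636, 7763 and 6910.2 (log2 fold change -0.066, interval -0.36 to 0.23). Aldoc was near the floor with 33.2, 8.16 and 4.54 against 21.3, 22.6 and 4.37, and its values spread widely within each diet. The interval of its log2 fold change (-2.08 to 1.61) allows a change of several fold in either direction. Like Slc2a3, Aldoc was highest in HFD mouse 1, where the neuron and several other marker lists were highest in sum. The part of these lists in Aldoc was not tested.

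In lower glycolysis, which yields ATP and pyruvate, 2 of 7 genes had an unadjusted p under 0.05, and they encode the isoforms of 1 enzyme, phosphoglycerate mutase. Pgam2, the muscle form (chromosome 11 of GRCm38, 5801640 to 5803733, minus strand), had 4391, 4074 and 7617 normalized counts in HFD mice and 7635, 7890.3 and 6469 in control mice. HFD mice 1 and 2 lay well below the controls and HFD mouse 3 among them. The summed atrial muscle markers were likewise below all controls in HFD mice 1 and 2 and not in HFD mouse 3, though Sln was below in every HFD mouse. The part of these markers in Pgam2 was not tested. The log2 fold change was -0.51 (SE 0.21, unadjusted p = 0.0362, adjusted p = 0.368 from limma). Pgam1, the widely expressed form (chromosome 19 of GRCm38, 41911871 to 41918664, plus strand), had 2069, 1864 and 2910.0 against 1740.0, 1722 and 1668. Here all HFD mice lay above all controls and HFD mouse 3 was the farthest, with a log2 fold change of 0.39 (SE 0.16, unadjusted p = 0.0309, adjusted p = 0.349 from limma). Neither passed.

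The 250 bases before the start of transcription are shown for the pair of mutase genes, whose differences had opposite signs, from RefSeq (GRCm38.p6), 5′ to 3′ on the gene's strand. Capitals mark the hypoxia response core ACGTG or its reverse complement, which stands 114 bases before the start of Pgam1 and in neither strand of the Pgam2 window.
Pgam1, chr19:41911621-41911870, plus strand: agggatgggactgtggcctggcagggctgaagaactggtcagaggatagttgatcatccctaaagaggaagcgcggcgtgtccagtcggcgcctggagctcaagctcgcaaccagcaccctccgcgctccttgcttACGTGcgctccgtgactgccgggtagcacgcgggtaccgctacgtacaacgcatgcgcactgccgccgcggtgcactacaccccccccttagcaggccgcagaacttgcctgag
Pgam2, chr11:5803797-5804046, minus strand: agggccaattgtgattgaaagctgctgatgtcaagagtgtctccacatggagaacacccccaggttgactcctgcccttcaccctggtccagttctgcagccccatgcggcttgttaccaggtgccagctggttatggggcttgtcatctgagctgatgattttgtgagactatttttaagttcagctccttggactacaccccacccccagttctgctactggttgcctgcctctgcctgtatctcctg
The promoters of 36 of the 38 genes were in the RefSeq table, with 56 windows from 250 bases before to 50 after the start, and both strands were searched. ACGTG stood in 39.3% of these windows, against 19.6% of all 32851 promoters and 39.4% of the 66 windows of other glucose pathway genes. The GC box GGGCGG stood in 58.9% of the windows of the set, against 35.7% of all promoters and 63.6% of the other pathway windows. The E-box CACGTG, which contains ACGTG, stood in 7.14%, against 7.15% of all promoters and 21.2% of the other pathway windows. In the same order, the TATA sequence TATAAA stood in 3.57%, against 13.6% and 7.58%, and a PPAR direct repeat in 0, against 0.0396% and 0. Of the other genes with an unadjusted p under 0.05, Pfkfb3 (higher) and Pfkm (lower) held ACGTG in a window. Phka1 (higher) and Tkt (lower) did not. These are matches of letters and do not show that a factor binds.

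The other 5 genes of lower glycolysis had overlapping diets. Gapdh, which makes the first NADH of the pathway, had 2958, 2489 and 3044 normalized counts in HFD and 3518, 3183 and 2779.6 in control mice (log2 fold change -0.16). Pgk1, which makes the first ATP, had 2716, 2301 and 2643 against 2178, 3335 and 2627 (log2 fold change -0.069). Eno3, the muscle enolase, had 9658, 8778 and 11993 against 11021, 12665 and 9959.8 (log2 fold change -0.15), with HFD mouse 2 the lowest. Eno1, the widely expressed enolase, had 1926, 1660.3 and 2567 against 2101, 2091 and 1940.1 (log2 fold change -0.018). Pkm, pyruvate kinase, closed the pathway with 15260.3, 12897 and 17151 against 16024, 16445 and 13685 (log2 fold change -0.032, interval -0.35 to 0.28). In the last 3, and in Aldoa and Tpi1, HFD mouse 2 was the lowest and HFD mouse 3 the highest of its diet.

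Several of these genes share sequence with near-identical copies (at least 95% identity over at least 300 coding bases), and since only uniquely mapped reads were counted, their levels are uncertain. Gapdh had 78 such copies, of which the 72 in the table summed to 18.4% of its own count. Pgk1 had 4, and the 2 in the table held 141% of its own count, nearly all of it in Pgk1-rs7 on chromosome 12, with a mean of 3610 normalized counts against 2633 for Pgk1. The other Pgk1 copy, Gm5537 on chromosome 3, counted 695 in HFD mouse 3, 1.02 in HFD mouse 2 and 0 in the other 4. For Eno1 the copies held 41.9% of its own count and for Pgam1 31.7%. Pgam1-ps2 was highest in HFD mouse 3 with 971, as Pgam1 was, against 475 to 639 in the other 5. With the copies added, Pgam1 had a log2 fold change of 0.35 (unadjusted p = 0.064, adjusted p = 0.446 from limma) and Pgk1 one of 0.0058.

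Ratios of paired isoforms within a mouse do not depend on the scaling between libraries, and 12 of them were compared. The ratio was higher in all HFD mice than in all control mice for 3 pairs and lower for 0, and 10 of the 12 differences were positive. No such share was computed for other pairs of genes, and of all single genes tested 18% did not overlap. Each of the 3 had a two-sided exact permutation p of 0.1, the smallest that 3 mice against 3 allow, which is 0.343 after Benjamini-Hochberg adjustment over the 12. The largest was Pgam1 to Pgam2, with ratios of counts of 0.471, 0.458 and 0.382 in HFD mice 1, 2 and 3 and 0.228, 0.218 and 0.258 in control mice 1, 2 and 3. The means differed by 0.89 log2 units (SE 0.12), and HFD mouse 3, which stood apart for each gene alone, lay with the other HFD mice in the ratio. Pfkp to Pfkm had 0.0787, 0.0824 and 0.10 against 0.0615, 0.0521 and 0.0604, a difference of 0.58 (SE 0.13). Pfkl to Pfkm had 0.147, 0.144 and 0.202 against 0.118, 0.113 and 0.104, a difference of 0.54 (SE 0.16). The phosphofructokinase pairs share Pfkm and the PFKFB pairs share Pfkfb2, so the 12 ratios and their signs are not independent. In all pairs but Mpc1 to Mpc2 the isoform usual in heart or muscle was the denominator, so the signs share an orientation. The part of the share of muscle RNA in these ratios was not tested. Pfkl to Pfkm and Pfkp to Pfkm were highest in HFD mouse 3, and Pgam1 to Pgam2 was lowest there among the HFD mice.

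**Figure D4:**
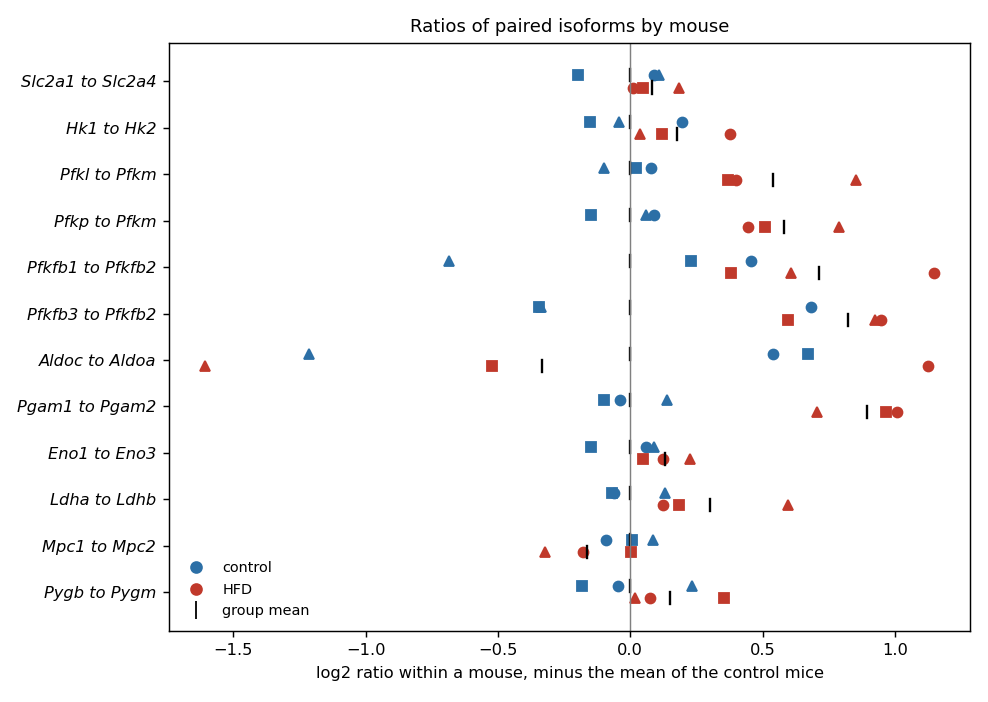
Log2 ratio of the counts of 2 isoforms within each mouse, minus the mean of the 3 control mice (x axis), for 12 pairs (y axis). Blue marks are control mice, red marks HFD mice (circle, square and triangle for mice 1, 2 and 3) and black bars group means. Red and blue separate for Pfkl to Pfkm, Pfkp to Pfkm and Pgam1 to Pgam2 and mix in the other 9 pairs.

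The other 9 ratios overlapped. Ldha to Ldhb, the lactate dehydrogenase subunits of muscle and heart type, had 0.677, 0.706 and 0.939 against 0.596, 0.592 and 0.680, where HFD mouse 3 was the highest and HFD mouse 1 lay just below control mouse 3. Pfkfb3 to Pfkfb2 had 0.637, 0.499 and 0.628 against 0.531, 0.260 and 0.262, where control mouse 1 lay among the HFD mice. Eno1 to Eno3, which pairs the widely expressed enolase with the muscle one as in the mutases, differed by only 0.13 log2 units (SE 0.091). Hk1 to Hk2 differed by 0.18 (SE 0.15), Pygb to Pygm by 0.15 (SE 0.16) and Slc2a1 to Slc2a4 by 0.081 (SE 0.11). Pfkfb1 to Pfkfb2 differed by 0.71 (SE 0.42), and the negative differences were Mpc1 to Mpc2 (-0.17) and Aldoc to Aldoa (-0.33, SE 1.00).

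At the fork between lactate and mitochondria none of 5 genes passed. Ldha had 7851, 7047 and 10204 normalized counts in HFD mice and 7464, 7766 and 7194 in control mice (log2 fold change 0.15). Ldhb, the heart subunit, had 11601, 9979 and 10869 against 12534, 13109 and 10576 (log2 fold change -0.16). HFD mouse 3 alone exceeded all controls for Ldha. Slc16a3, the lactate exporter of glycolytic cells, counted 87.4, 76.5 and 71.6 against 79.5, 42.4 and 53.6, with control mouse 1 among the HFD mice (log2 fold change 0.46, interval -0.16 to 1.08). Mpc1 and Mpc2 form the carrier that takes pyruvate into mitochondria. Mpc1 had 2773, 2521 and 2579 against 2874, 3542 and 2890.0, where the diets did not overlap but HFD mouse 1 and control mouse 1 lay close together (log2 fold change -0.24, interval -0.50 to 0.026, adjusted p = 0.467 from limma). Mpc2 had 2022, 1621 and 2079 against 1974, 2274 and 1757 (log2 fold change -0.07).

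None of the 6 glycogen genes passed, and all 6 intervals lay inside a 2-fold change, with standard errors of 0.10 to 0.14 log2 units. Phka1, the muscle alpha subunit of phosphorylase kinase, which switches on glycogen breakdown (chromosome X of GRCm38, 102513975 to 102644246, minus strand), was the 1 gene of 6 with an unadjusted p under 0.05. It had 783, 959 and 743 normalized counts in HFD mice and 615, 654 and 645 in control mice. All HFD mice lay above the tightly grouped controls and HFD mouse 2 the highest, with a log2 fold change of 0.37 (SE 0.13, unadjusted p = 0.0172, adjusted p = 0.276 from limma), which did not pass. Its target Pygm, muscle glycogen phosphorylase, had 16719.9, 15139 and 16199 against 17657, 18663 and 16025 (log2 fold change -0.12). Pygb, the brain phosphorylase, which heart also uses, had 11364, 12515 and 10586 against 11033, 10612 and 12160.0 (log2 fold change 0.027). Neither phosphorylase separated the diets. On the synthesis side, Ugp2, which makes UDP-glucose, had 2637, 2642 and 2844 against 2302, 2876 and 2747 (log2 fold change 0.041). Gys1, muscle glycogen synthase, had 2426, 2572 and 2641 against 2479, 2275 and 2241 (log2 fold change 0.13, interval -0.10 to 0.36, the narrowest of the 38). Gbe1, the branching enzyme, had 799.6, 730.2 and 912 against 817, 957 and 1037 (log2 fold change -0.20).

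In the pentose phosphate pathway the difference nearest to the threshold among all 38 genes was found. Tkt, transketolase, which links the pathway back to glycolysis (chromosome 14 of GRCm38, 30548359 to 30574722, plus strand), had 702, 706 and 796 normalized counts in HFD mice 1, 2 and 3 and 1153, 1181 and 939 in control mice 1, 2 and 3. Every HFD mouse lay below every control mouse, with HFD mouse 3 and control mouse 3 the nearest. The log2 fold change was -0.56 (SE 0.13, interval -0.85 to -0.28, unadjusted p = 0.00127, adjusted p = 0.0821 from limma), a difference of -32.4%. With 1 mouse left out its log2 fold change ranged from -0.67 to -0.50 and its adjusted p from 0.0465 to 0.336. The other 3 genes had positive estimates and overlapped. G6pdx, the NADPH-making entry enzyme, counted 359, 293 and 332 against 359, 249.8 and 228 (log2 fold change 0.25). Pgd, the next dehydrogenase, had 575, 543 and 689 against 577, 647 and 508 (log2 fold change 0.06). Taldo1, transaldolase, Tkt's partner in the sugar exchange, had 1099, 1059 and 1186 against 1114, 1126 and 996 (log2 fold change 0.047, interval -0.20 to 0.30). Across the mice, transaldolase spanned 996 to 1186 and transketolase 702 to 1181.

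Of 73 other genes of these pathways, 65 were tested and 2 rose in HFD atria, while 0 fell (against 0.484% of all genes higher and 0.262% lower). Both act at the edge of glycolysis. Txnip, an arrestin-domain protein that restrains glucose uptake and is induced by glucose (chromosome 3 of GRCm38, 96557957 to 96561883, plus strand), had 20129, 22435 and 12289 normalized counts in HFD mice and 5430.4, 5256 and 6745 in control mice. All HFD mice lay above all controls, mouse 3 the lowest of them, and the log2 fold change was 1.62 (SE 0.21, adjusted p = 0.00937 from limma), a 3.07-fold level. Gfpt2, which opens the hexosamine pathway by drawing off fructose phosphate (chromosome 11 of GRCm38, 49794178 to 49838613, plus strand), had 1275, 1043 and 1047 against 723, 485 and 466, with a log2 fold change of 1.03 (SE 0.18, adjusted p = 0.031 from limma). Within each diet the mice stood, for Gfpt2, in the order of the summed white adipocyte, brown adipocyte and leukocyte markers. HFD mice 2 and 3 were nearly equal for Gfpt2. Of these 3 sums only the brown adipocyte one did not overlap between diets (616 to 1283 against 187 to 330). The part of any of these lists in Gfpt2 was not tested. Gfpt1, a relative of Gfpt2 that catalyzes the same step, had 415, 549 and 534 against 378, 457 and 557 (log2 fold change 0.11). Txnip kept an adjusted p under 0.05 in 4 of the 6 fits with 1 mouse left out (0.0508 without control mouse 1 and 0.0689 without control mouse 2) and Gfpt2 in 2 of 6. Without a variance trend neither passed (0.174 and 0.189, all from limma), as no gene of the 15275 did.

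The Txnip promoter is shown because Txnip was the gene with the largest difference among those that passed, and its known control by glucose acts through a paired E-box-like element. In capitals is its carbohydrate response element, a pair of CACGAG boxes 5 bases apart, which begins 85 bases before the start of transcription. An exon of Txnip overlaps the antisense gene Gm15441, which had 3.28 to 17.3 normalized counts.
Txnip, chr3:96557707-96557956, plus strand: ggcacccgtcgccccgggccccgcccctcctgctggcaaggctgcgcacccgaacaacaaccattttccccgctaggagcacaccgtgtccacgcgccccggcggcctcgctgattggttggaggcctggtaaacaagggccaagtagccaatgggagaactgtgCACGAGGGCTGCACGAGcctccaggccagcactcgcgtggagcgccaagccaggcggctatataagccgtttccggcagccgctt
The letters of this search were taken from this promoter after its values were known, and Txnip was the 1 promoter of 32851 that held them.

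Among the other pathway genes, 8 had an unadjusted p under 0.05 (12.3%, against 12.2% of all genes), 7 higher and 1 lower. Besides Txnip and Gfpt2, 3 of those higher without overlap are given here. Fbp2, muscle fructose bisphosphatase, which opposes phosphofructokinase, counted 146, 138 and 119 against 78.4, 65.0 and 50.3 (log2 fold change 1.06, adjusted p = 0.0686 from limma and 0.0105 from DESeq2). Slc2a6, a hexose transporter of internal membranes, counted 26.1, 27.5 and 27.3 against 16.8, 8.90 and 13.1 (log2 fold change 1.05, adjusted p = 0.373 from limma). Each HFD mouse lay above each control for these genes. Arrdc4, an arrestin-domain relative of Txnip that responds to the same glucose sensor, counted 321, 327 and 332 against 207, 274 and 273 (log2 fold change 0.39, adjusted p = 0.349 from limma). Another 2 genes overlapped between diets and were chosen for mention after their values were seen. Pck1, which makes phosphoenolpyruvate and is abundant in fat, counted 1654, 375 and 745 against 397, 83.5 and 56.8 (log2 fold change 2.63, adjusted p = 0.11 from limma, 0.0361 without control mouse 1). Within each diet its mice stood in the order of the summed white adipocyte markers (3718, 1257 and 1519 against 2747, 1235 and 568), which overlapped between diets. They stood in the same order for the summed brown adipocyte markers (1283, 616 and 1276 against 330, 239 and 187), which did not overlap, and the part of either list in Pck1 was not tested. Ppp1r3c, which brings a phosphatase to glycogen, had 1777, 1797 and 3329 against 3445, 2887 and 3798 (log2 fold change -0.61, adjusted p = 0.295 from limma, 0.0083 without HFD mouse 3). HFD mouse 3 lay among the controls for Ppp1r3c, as it did for Pgam2. The 8 genes not tested had a mean under 10, and among them Hkdc1, Tktl2 and G6pc were at 0 in all 6 mice.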

How the data were processed

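Atrial RNA of 3 HFD and 3 control mice was sequenced from directional libraries. The authors checked reads with FastQC, mapped them with STAR to GRCm38 (Ensembl 79), used unique matches only, counted them per gene with Salmon and normalized the counts with DESeq2. Their tool versions and the use of strand are not given in the sources used here. The deposited signal is each gene's read count divided by 1 size factor per sample. The deposited log2 fold changes, p-values and scores are the authors' own comparison and were not used.

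The 15275 genes with a mean of at least 10 entered limma (version 3.58.1, R 4.3.3) as log2(normalized count + 1), with lmFit and trended eBayes, no covariates and a Benjamini-Hochberg adjusted p of 0.05 as threshold. A fold change on this scale understates the change of low genes. Nothing in the labels says more of the replicates than their titles, so p-values measure the spread between these samples. Dividing by the smallest step gave whole reads for 100% of values (within 0.01) in each sample, and edgeR 4.0.16 and DESeq2 1.42.0 were run on these reads. Totals were 15874251 to 28971508 reads. The script was tested on simulated data. Names, exon lengths and near-identical copies came from GENCODE M21 (GRCm38) and promoters from RefSeq.

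The 38 genes and all lists were chosen with earlier results of these data known. Named are all 38 genes and, of cell type markers, only sums besides Pecam1, Myh6 and Sln. Of 73 other pathway genes, those are named that passed or, in each direction, up to 6 with an unadjusted p under 0.05 and no overlap. A gene that this rule names is not reported here. The alternatives were quantile normalization, scaling without mitochondrial genes or to the nuclear total, no variance trend, no filter, a minimum of 10 in every sample, a pseudocount of 0.1, a block for replicate number, leaving out each mouse, edgeR, DESeq2, a fold change criterion and, chosen after seeing the data, near-identical copies added.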

Additional observations from a re-analysis of the deposited data

How the results depend on the processing

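Of 683 values of single genes of the set under the alternatives, 645 kept their sign and side of the threshold, 3 passed it newly and 35 changed sign, in 14 of the 38 genes. The other 24 genes kept their sign under every alternative run. Genes of the set that passed numbered 0 in the main comparison, 1 with DESeq2 and 0 to 2 with each mouse left out, and 0 under the other alternatives. Over all genes the count of 114 became 0 without a variance trend (1717 genes at an unadjusted p under 0.05), 483 with DESeq2, 69 with a log2 fold change beyond 1 required, and 14 to 318 with each mouse left out, where the count was 14 without control mouse 2, 19 without control mouse 3, 24 without HFD mouse 2, 48 without control mouse 1, 50 without HFD mouse 1 and 318 without HFD mouse 3. The 2 other pathway genes that passed became 0 without a variance trend and 0 to 3 with each mouse left out. The cause of these shifts was not tested. The fits with a mouse left out also had fewer samples.

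Signs changed for Hk1 (0.0016 and 0.0033 with edgeR's TMM and RLE, 0.0033 with DESeq2), Eno1 (0.0026, 0.0039 and 0.0038 likewise), Ugp2 (-0.0045 with quantile normalization) and Pgk1 (0.0058 with near-identical copies added). With each mouse left out, the log2 fold change ranged from -0.30 to 0.32 for Slc2a3, -0.14 to 0.094 for Hk1, -0.39 to 0.017 for Hk2, -0.99 to 0.32 for Aldoc, -0.18 to 0.031 for Tpi1, -0.22 to 0.091 for Pgk1, -0.19 to 0.12 for Eno1, -0.13 to 0.077 for Pkm, -0.0064 to 0.26 for Ldha, -0.16 to 0.043 for Mpc2, -0.037 to 0.084 for Pygb, -0.055 to 0.11 for Ugp2, -0.041 to 0.15 for Pgd and -0.0091 to 0.084 for Taldo1. The log2 ratio difference ranged from -0.017 to 0.13 for Slc2a1 to Slc2a4 and from -1.06 to 0.30 for Aldoc to Aldoa. The median log2 fold change of the set ranged from -0.13 to 0.025.

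The replicate numbers of the 2 diets are different animals. Deviations from the group mean correlated 0.12, -0.027 and -0.0039 for equal numbers, and not every mouse correlated best with its own number. With 3 mice per diet these values cannot decide whether equal numbers were handled together. With the replicate number as a block 157 genes passed, 0 of the set and 3 other pathway genes, the added one being Pck1 (adjusted p = 0.0024 from limma). With a minimum of 10 in every sample Aldoc could not be tested. The intervals of Aldoc (mean 15.7 normalized counts), Slc16a3 (68.5) and Pfkfb1 (74.5) reached beyond a 2-fold change.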

Other observations

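The remaining marker lists had the following summed normalized counts. The 8 leukocyte markers summed to 7036 to 8414 in HFD and 5384 to 7043 in control mice, and 1 of the 5 tested was higher with an adjusted p under 0.05 (limma). The 4 smooth muscle markers summed to 4754 to 5623 against 2675 to 5154. The 5 fibroblast markers summed to 32832 to 34609 against 33273 to 38927, and the 6 erythroid markers to 1382 to 2245 against 1514 to 2235. The 4 ventricular muscle markers summed to 6882 to 9866 against 7919 to 17399, with control mouse 2 the highest. The 4 mesothelial markers summed to 1101 to 1733 against 1172 to 1787.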
